A study of Mus musculus with 9 samples.

Results

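The TRAF, cIAP and RIPK signalling adaptors are 10 genes, Traf1, Traf2, Traf3, Traf5, Traf6, Birc2, Birc3, Ripk1, Ripk2 and Tradd, of 16921 genes in a table of ribosome footprints from mouse macrophages. They were taken by gene name, and all 10 had a normalised value of at least 10 and were tested in every comparison. RiboSeq counts the pieces of mRNA that ribosomes protect from nuclease, so a value joins how much mRNA a gene has and how densely it is translated. The cells were bone marrow-derived macrophages that lacked TTP (tristetraprolin, gene Zfp36), a protein that binds AU-rich elements in 3′ UTRs and promotes decay of the mRNA. They had been grown with M-CSF for 10 days and immortalized with human c-Myc and mutant human Ras. Separately transduced lines then expressed, from a doxycycline-inducible vector, GFP alone, GFP-TTP or GFP-TTP-AA, in which S52A and S178A remove the serines that the kinase MK2 phosphorylates. All 3 conditions shared the TTP deficiency, 6 h of doxycycline (1 µg/ml) and 1 h of LPS (1 µg/ml), and each had 3 libraries, described as biological replicates. Because each condition was its own line, a difference between proteins and a difference between lines cannot be told apart. No unstimulated library was analysed here.

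These adaptors carry signals from TNF receptors, Toll-like receptors and NOD receptors to NF-κB and MAP kinases. TRADD and RIPK1 are recruited to the occupied TNF receptor TNFR1, TRAF2 brings the ubiquitin ligases cIAP1 (Birc2) and cIAP2 (Birc3), and the ubiquitin chains they build recruit the kinases TAK1 and IKK. TRAF6 has the same place below Toll-like receptors, RIPK2 below NOD1 and NOD2, and TRAF3 with TRAF2 and the cIAPs keeps the kinase NIK low. Traf1 and Birc3 are known in macrophages as NF-κB target genes.

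TTP prefers UAUUUAU, so the annotated 3′ UTRs were searched for ATTTA and for TATTTAT, on the transcript strand and with overlaps counted. ATTTA was found in 9 of the 10 genes and TATTTAT in 6, with 13 copies in all. Over the 9937 3′ UTRs of all genes with a value of at least 10, 70.8% held ATTTA and 30.7% held TATTTAT. These are 3′ UTRs of any length (median 1187 bases), and the share depends on length. Near the length of Traf5 (225 bases) 7.71% held TATTTAT, and near that of Traf3 (5093 bases) 65.8% did. The windows below, from the GENCODE annotation on GRCm38, are all those with ATTTA of the 4 genes called higher in GFP-TTP-AA than in GFP-TTP. The Ripk1 windows with TATTTAT are added, since Ripk1 held the most copies of it (5). Ripk1 also stood higher in that comparison, by 0.37 on the log2 scale (SE 0.14, adjusted p = 0.0820, Wald test), but was not called. A link between the copies held by a gene and its change was not tested. Every ATTTA is in capitals.
Traf1, chr2:34943386-34943415, minus strand: acattaatgtgaATTTAacctgccctggac
Traf1, chr2:34942893-34942922, minus strand: cttccttccttcATTTAttccttccttcct
Traf1, chr2:34942093-34942122, minus strand: aacagacagatcATTTAtcttccagagaag
Traf2, chr2:25518379-25518408, minus strand: ttttcacactggATTTActggttttaaaag
Birc3, chr9:7857119-7857148, minus strand: ATTTATTTATTTATTTAaaagATTTATTTA
Birc3, chr9:7856928-7856957, minus strand: ccgcttggagaaATTTAaaaaacagcataa
Ripk2, chr4:16123497-16123526, minus strand: ttacaaatggttATTTAtatttctgttacc
Ripk1, chr13:34035557-34035586, plus strand: ttttagatctATTTATTTAtgtctatgagt
Ripk1, chr13:34035865-34035894, plus strand: atctatctATTTATTTATTTAttttgtgtg

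Traf1, whose change was the largest of the 10, held 3 single ATTTA and no TATTTAT in a 3′ UTR of 2123 bases. Of the 1513 3′ UTRs within 0.8 to 1.2 times that length, 91.3% held ATTTA and the median was also 3. Birc3 held 7 ATTTA in 1525 bases, against a median of 2 in 1499 3′ UTRs of like length, and 6 of the 7 stood in the window that starts 192 bases after the stop codon. Its 3 TATTTAT stood beside 34.0% of such 3′ UTRs with any. Ripk2 had 1 TATTTAT in 821 bases (21.5% of 3′ UTRs of like length held it) and Traf2 had none in 1428 bases. The 5 TATTTAT of Ripk1 stood in 4365 bases, and 60.8% of 3′ UTRs of like length held any. Traf3 held 2 TATTTAT in 5093 bases, where 65.8% of 3′ UTRs of like length held any, and 3 ATTTA against a median of 9. The transcript chosen matters for Birc3 and Traf2: in the transcript with the longest coding sequence Birc3 had 4 ATTTA and 1 TATTTAT in 564 bases, and Traf2 had none of either in 544. A match is a description of letters and says nothing of binding.

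The values of the libraries are those fitted by the authors' model rather than observed counts, with no spread left between replicates once condition and replicate number are taken out. The libraries of a gene therefore differ by a condition step that is the same in all 3 replicates and a replicate step that is the same in all 3 conditions, and library values below show levels, not scatter. Errors come from the standard errors that the authors deposited for each comparison. Values were divided by the library's size factor (0.418 to 2.12; fitted sums 2570292 to 12804501 per library). The macrophage genes Lyz2 (mean 60574) and 6 of 7 other fixed macrophage markers stood at or above 10, with Mertk at 4.92, and no marker of T cells, B cells, dendritic cells or fibroblasts reached 10. Of the 4 neutrophil markers, S100a8 reached 10, with a mean of 37.5, and Mpo stood at 0.124; the list summed to 27.0, 25.6 and 55.8 in GFP, GFP-TTP and GFP-TTP-AA, and its part in the results was not tested. Zfp36 itself, the gene of the expressed protein, stood at 457, 923 and 1531 in GFP, GFP-TTP and GFP-TTP-AA. It was higher in GFP-TTP-AA than in GFP-TTP by 0.73 on the log2 scale (SE 0.25, adjusted p = 0.0382, Wald test). Footprints on this gene were therefore unequal, and the part of this in the results was not tested. This call was not tested again under the alternative settings. The GFP value shows that reads still fell on this gene in the TTP-deficient line, so its footprints are not those of the expressed proteins alone. By western blot, the paper reports a similar extent of expression for GFP-TTP and GFP-TTP-AA.

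The clearest differences between the adaptors lay between GFP-TTP-AA and GFP-TTP. Traf1, Birc3, Ripk2 and Traf2 had more footprints in GFP-TTP-AA, by 1.43 to 2.35-fold, and none of the 10 was called lower. Of all genes tested 5.66% were called higher. The Ripk2 call depended on the setting, as given below. Birc2, Traf5 and Traf6 differed by less than 0.08 on the log2 scale. No adaptor passed the test between GFP-TTP and GFP, where 2.09% of all genes tested did. Between GFP-TTP-AA and GFP, Traf1 passed and the other 9 did not, where 3.03% of all genes tested passed.

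**Figure D1:**
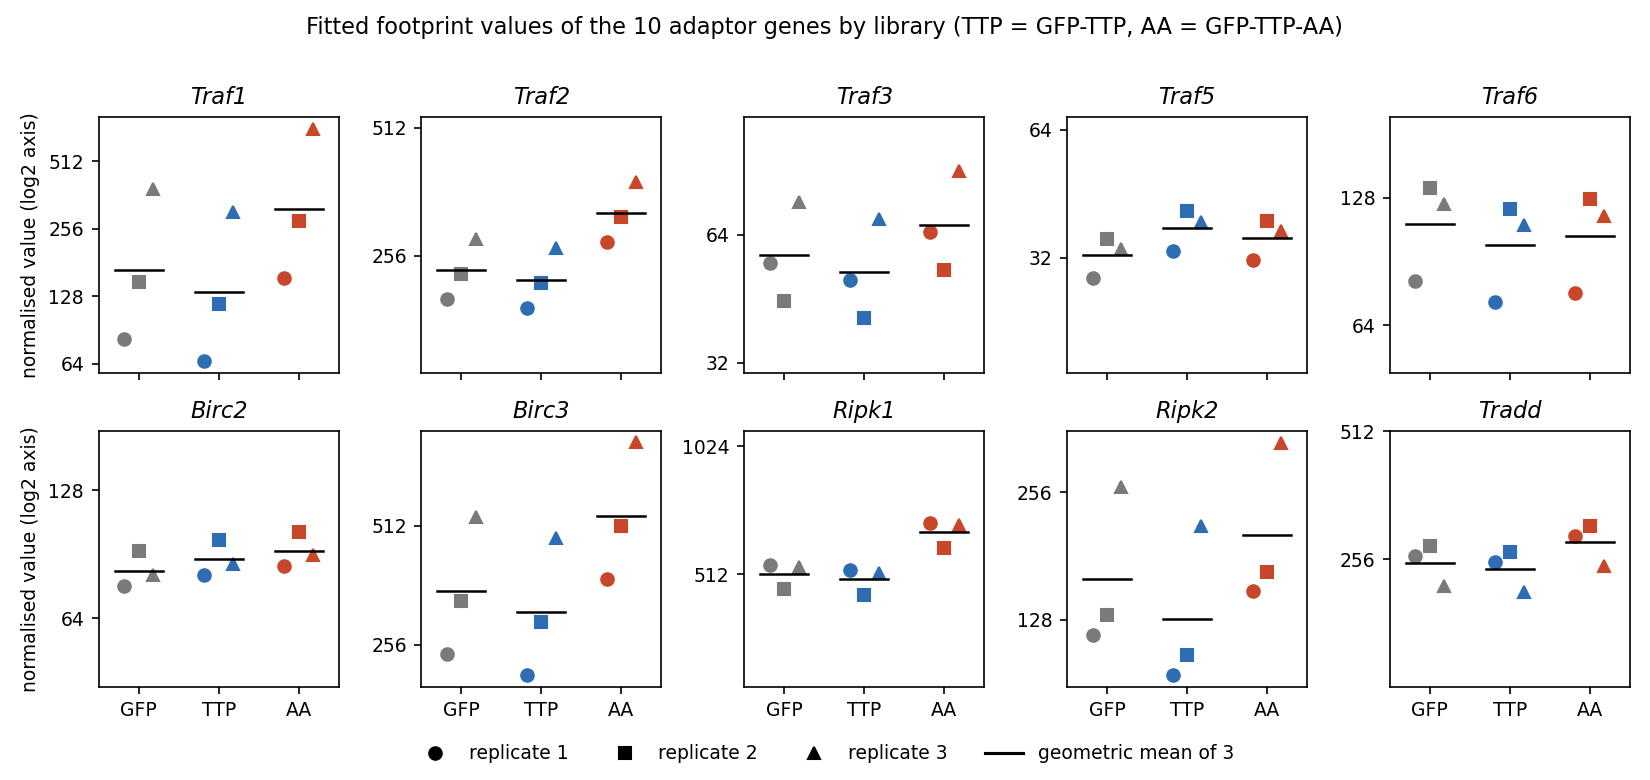
Normalised fitted footprint values of the 10 adaptor genes (log2 axis, with its own range in each panel) in the 9 libraries, with condition on the x axis, the replicate number as the marker and the geometric mean of 3 libraries as a line. GFP-TTP-AA has the highest line in 8 of 10 panels, as it has in 38.0% of all genes with a value of at least 10. In Traf1, Birc3 and Ripk2 replicate 3 stands well above replicate 1, by a fitted step that is the same in each condition.

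Among the TRAF proteins, Traf1 (chr2:34941750-34961772, minus strand, ENSMUSG00000026875) encodes the member without a RING domain, which pairs with TRAF2. Its normalised values were 82.7, 148 and 383 in the GFP libraries 1 to 3, 65.6, 118 and 304 in GFP-TTP, and 155, 277 and 716 in GFP-TTP-AA. The ranges of the conditions overlapped, as the fitted replicate step, highest in replicate 3, was larger than the condition step. The fit makes the order of the conditions the same within every replicate number, so that order is no evidence from replicates. Traf1 was 2.35-fold higher in GFP-TTP-AA than in GFP-TTP, a log2 difference of 1.24 (SE 0.23, adjusted p = 6.53e-06), and 1.87-fold higher than in GFP, a log2 difference of 0.90 (SE 0.23, adjusted p = 0.00650). Between GFP-TTP and GFP the log2 difference was -0.33 (SE 0.23, adjusted p = 0.643).

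Traf2 (chr2:25517982-25546940, minus strand) encodes the adaptor that binds both TRADD and the cIAPs. It had 203, 232 and 280 in GFP, 193, 221 and 267 in GFP-TTP, and 276, 316 and 382 in GFP-TTP-AA. The fitted replicate range (0.47 on the log2 scale) lay between the steps from GFP-TTP and from GFP to GFP-TTP-AA. That alone sets which conditions overlap, so the overlap is no evidence from replicates. The log2 difference was 0.52 against GFP-TTP (SE 0.16, adjusted p = 0.0197) and 0.45 against GFP (SE 0.16, adjusted p = 0.112), the latter not past the threshold.

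The other TRAF genes did not pass in any comparison. Traf3, which holds NIK low together with TRAF2 and the cIAPs, had levels (geometric means of 3 libraries) of 57.3, 52.2 and 67.6 in GFP, GFP-TTP and GFP-TTP-AA, with a log2 difference of 0.37 between the last pair (95% interval -0.08 to 0.83). Traf5, a close relative of TRAF2 in sequence, stood at 32.4, 37.6 and 35.7, the lowest levels of the 10, with a difference of -0.07 (95% interval -0.56 to 0.41). Traf6, the ubiquitin ligase of Toll-like receptor signalling, stood at 111, 98.8 and 104, with a difference of 0.07 (95% interval -0.37 to 0.51). Its 3′ UTR of 4170 bases held 11 ATTTA, the most of the 10 genes, against a median of 7 in 3′ UTRs of like length. Per kilobase it held 2.64, below Birc3 (4.59) and Traf5 (4.44).

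The paralogs Birc2 and Birc3 encode cIAP1 and cIAP2 and lie on the same strand of chromosome 9, with 11634 bases between them. Birc3 (chr9:7848699-7873186) had 242, 330 and 538 in GFP, 214, 292 and 476 in GFP-TTP, and 375, 510 and 833 in GFP-TTP-AA. The ranges overlapped across conditions, as the fitted replicate step, highest in replicate 3, was larger than the condition step. Birc3 was 1.75-fold higher in GFP-TTP-AA than in GFP-TTP (log2 difference 0.81, SE 0.21, adjusted p = 0.00232). Against GFP it was 0.63 higher (SE 0.21, adjusted p = 0.0606), which did not pass.

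Birc2 (chr9:7818227-7837064) had 76.3, 91.9 and 81.0 in GFP, 81.0, 97.6 and 86.0 in GFP-TTP, and 84.8, 102 and 90.0 in GFP-TTP-AA, so that the conditions overlapped almost wholly. From GFP-TTP to GFP-TTP-AA its log2 difference was 0.07 (SE 0.21, 95% interval -0.35 to 0.49). The difference of Birc3 exceeded that of Birc2 by 0.74 (SE 0.30, 95% interval 0.16 to 1.32, with the errors of both genes taken as independent). From GFP to GFP-TTP-AA the excess was 0.48 (95% interval -0.10 to 1.06), so that comparison does not separate them. This pair, like the pairs below, was compared with the values known, so no p is given. Reads were kept at up to a pair of places in the genome, so footprints on stretches alike in both genes could be shared between them.

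Of the kinases, Ripk2 (chr4:16122733-16163647, minus strand), which relays NOD1 and NOD2 signals, had 118, 131 and 264 in GFP, 95.2, 106 and 212 in GFP-TTP, and 150, 166 and 334 in GFP-TTP-AA. The conditions overlapped, as the fitted replicate step, which set replicate 3 apart, was larger than the condition step. It was 1.57-fold higher in GFP-TTP-AA than in GFP-TTP (log2 difference 0.65, SE 0.22, adjusted p = 0.0347). This call was lost when the median change of each chromosome was subtracted (0.61, adjusted p = 0.0589) or when p-values were adjusted over the 3 comparisons together (adjusted p = 0.0578).

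Ripk1 (chr13:34002363-34037147, plus strand), the TNFR1 kinase that serves both survival and cell death, had 539, 471 and 531 in GFP, 524, 458 and 517 in GFP-TTP, and 677, 592 and 667 in GFP-TTP-AA. The fitted replicate range (0.19 on the log2 scale) was smaller than the steps from the other conditions to GFP-TTP-AA. The lack of overlap follows from that and is no evidence from replicates. The log2 difference was 0.37 against GFP-TTP (SE 0.14, adjusted p = 0.0820) and 0.33 against GFP (SE 0.14, adjusted p = 0.231), and neither passed. The difference of Ripk2 exceeded that of Ripk1 by 0.28 against GFP-TTP (95% interval -0.23 to 0.80), so these data do not separate them. That of Traf1 exceeded that of Traf2 by 0.72 against GFP-TTP (SE 0.28, 95% interval 0.17 to 1.27). Against GFP the excess of Traf1 was 0.46 (95% interval -0.09 to 1.01), so that comparison does not separate Traf1 and Traf2.

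Tradd (chr8:105258286-105264609, minus strand), the death domain adaptor that TNFR1 binds, had levels of 251, 243 and 280 in GFP, GFP-TTP and GFP-TTP-AA. Its log2 difference between the last pair was 0.21 (SE 0.17, adjusted p = 0.510). Tradd was the gene of the 10 with no ATTTA in its 3′ UTR.

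**Figure D2:**
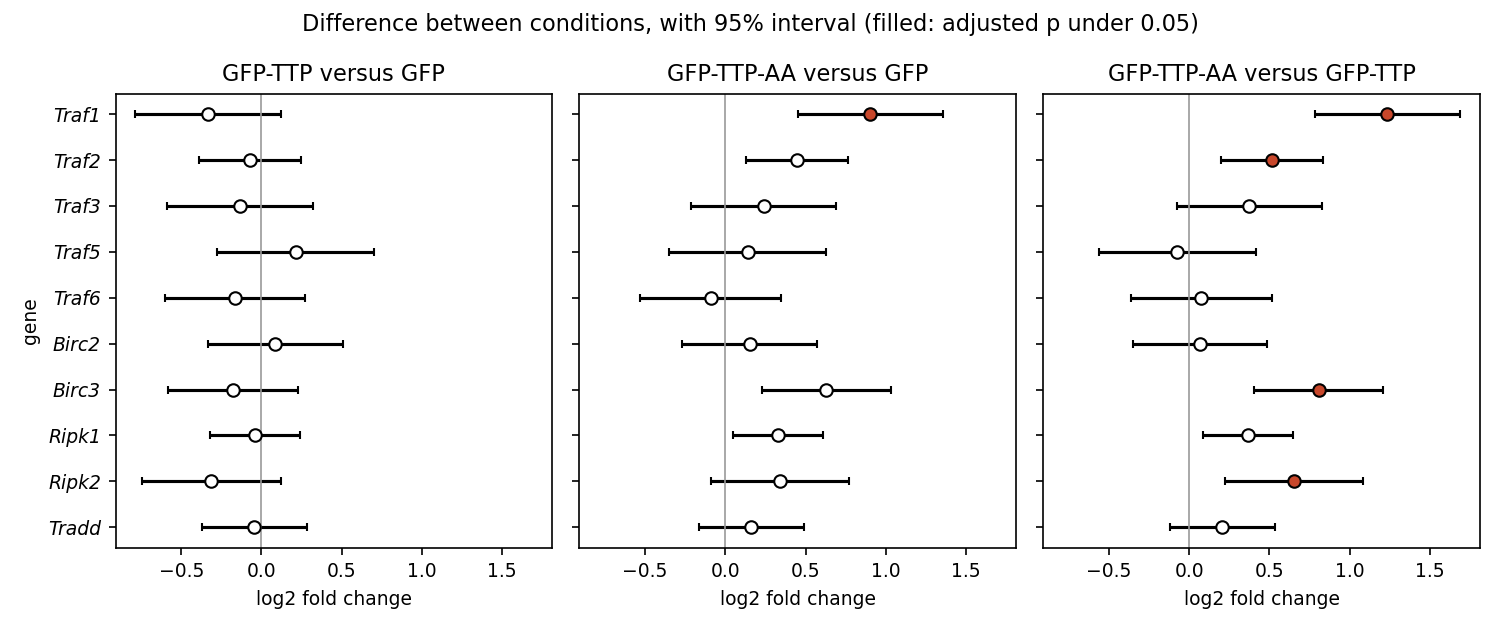
Log2 fold change of each adaptor gene (x axis) with its 95% interval, from the deposited standard error, in the 3 comparisons. Filled points have an adjusted p under 0.05: none on the left, Traf1 in the middle, and Traf1, Traf2, Birc3 and Ripk2 on the right.

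Counted over the 10 genes, 4 were called higher and 0 lower in GFP-TTP-AA than in GFP-TTP. Of the 10099 genes tested, 5.66% were called higher and 10.2% were called in either direction. The median log2 difference of the 10 was 0.37, against 0.01 over all genes tested, and 9 of the 10 were positive, against 50.8% of all genes. At an unadjusted p under 0.05, 5 of the 10 passed, as did 22.1% of all genes. In GFP-TTP-AA against GFP 1 was called, where 1.76% of genes were called higher and 3.03% in either direction. The median was 0.28, against 0.006 over all genes, again with 9 positive, against 51.2% of all genes. At an unadjusted p 4 of 10 passed (14.3% of all genes). In GFP-TTP against GFP 0 of 10 passed by the Wald test, adjusted or unadjusted, where 2.09% of 9938 genes passed adjusted and 11.3% unadjusted. The median was -0.10 with 2 positive and 8 negative, against 0.002 and 50.4% positive over all genes. The median absolute difference was 0.150 in the 10 genes and 0.149 over all genes. Each pair of comparisons shares a group of libraries, so the counts are not independent. In bulk cells, fewer cells that use a gene and less RNA per cell cannot be told apart. P-values measure the spread between libraries of 1 line per condition.

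Levels can be set between genes per kilobase of coding sequence. On that scale Tradd (269) and Ripk1 (260) stood highest in GFP, followed by Birc3 (194), Traf2 (155), Traf1 (136), Ripk2 (98.7), Traf6 (69.6), Birc2 (45.0), Traf3 (33.6) and Traf5 (19.6). The order was the same in GFP-TTP. In GFP-TTP-AA Ripk1 (327) stood above Tradd (300.5) and Birc3 (299.8), and Traf1 (255) above Traf2 (211). An error of a level was not used here, so neighbours such as Tradd and Ripk1 in GFP are not shown to differ.

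The range over replicate numbers was larger than the range over conditions in 8 of the 10 genes, all but Traf2 and Ripk1, and in 53.7% of the 10099 genes. In Traf1 the replicate range was 4.63-fold, larger than in 99.9% of these genes, and its range over conditions was larger than in 98.9%. Ripk2 (2.23-fold) and Birc3 (2.22-fold) were also past 99% of genes in the replicate range (99.4% each). In all 3 genes replicate 3 was the highest, as it was in 5 of the 10 and in 34.8% of all genes. Which step of the work the replicate number stands for is not given, beyond that the authors' model had a term for library date. An error for it was not used here. For Traf1 the mean fitted value was 87.0% of the mean observed value, the lowest of the 10 (the others 95.6% to 100.1%), and its SE of 0.23 was above the median of 0.17 for genes of like mean.

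**Figure D3:**
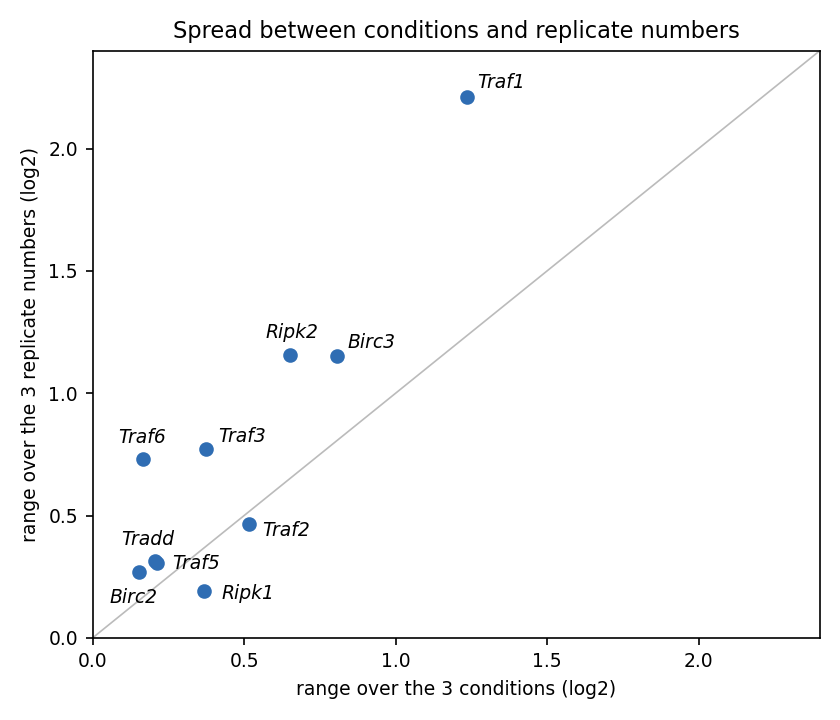
Range of the log2 value over the 3 replicate numbers (y axis) against the range over the 3 conditions (x axis) for each of the 10 adaptor genes, with the line of equality. Traf1 lies far above the others at 2.21 and 1.24, and Traf2 and Ripk1 alone lie below the line.

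Over the 9 libraries, with each gene's log2 values centred, the genes with the pattern nearest to Traf1 were Gbp2, an interferon-induced GTPase (root mean square difference 0.29), Stx11, a syntaxin (0.31), and Jdp2, a bZIP transcription factor (0.33). Among the 10098 genes ranked, Birc3 came 9th (0.47) and Ripk2 16th (0.51), while the other 7 adaptors lay between the 220th (Traf2) and the 6477th place (Tradd). This likeness includes the replicate step, which ranged 2.76-fold to 2.98-fold in the 3 nearest genes.

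Of 41 fixed partner genes of the adaptors, 39 had a level of at least 10 and were tested. Between GFP-TTP-AA and GFP-TTP 5 were called higher and 0 lower, with a median of 0.17 over the 39. Over all genes tested the median was 0.01, and 5.66% were called higher. Ripk3, the kinase of necroptosis that RIPK1 binds, had levels of 123, 39.0 and 202 in GFP, GFP-TTP and GFP-TTP-AA. It was higher in GFP-TTP-AA than in GFP-TTP by 2.37 on the log2 scale (SE 0.23, adjusted p = 8.02e-22) and from GFP to GFP-TTP it fell by 1.66 (SE 0.23, adjusted p = 5.79e-10). Between GFP-TTP-AA and GFP it was 0.72 (SE 0.23), with an adjusted p at the threshold (0.05), which fell to 0.0499 with a fitted mean of at least 50, 0.0401 with chromosome medians subtracted and 0.0356 with joint adjustment.

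Tnfrsf1a, the receptor TNFR1 at which TRADD and RIPK1 assemble, stood at 472, 359 and 650 in GFP, GFP-TTP and GFP-TTP-AA, and was higher in the last than in GFP-TTP by 0.86 (SE 0.15, adjusted p = 1.62e-06). The 6 receptors tested were all positive in both comparisons of GFP-TTP-AA, which share its libraries, and all negative in GFP-TTP against GFP. Of all genes, 50.8% were positive against GFP-TTP and 51.2% against GFP in GFP-TTP-AA. Tnfrsf1a was the one receptor that passed, in GFP-TTP-AA against GFP-TTP. Among TRAF-binding proteins Traf3ip3 (0.71, SE 0.19, adjusted p = 0.00335) and Tank (0.52, SE 0.18, adjusted p = 0.0488), which binds TRAFs and the kinase TBK1, were higher. So was Ube2n (0.48, SE 0.16, adjusted p = 0.0375), the enzyme Ubc13 that TRAF6 uses to build K63 chains. The Tank and Ube2n calls depended on the setting. Tank was lost with the median of all genes subtracted (adjusted p = 0.0526) and with joint adjustment over the 3 comparisons (0.0800), and Ube2n with chromosome medians subtracted (0.30, adjusted p = 0.278) and with joint adjustment (0.0623). None of the 6 TAK1 and NIK kinases and their partners and none of the 7 deubiquitinases passed in any comparison, which for groups of this size is near the shares of all genes called given above. In GFP-TTP against GFP Ripk3 alone of the 39 passed, where 2.09% of all genes did (median -0.09, against 0.002 over all genes). None of the 39 passed the Wald test between GFP-TTP-AA and GFP at the adjusted threshold, where 3.03% of all genes did. Both counts are near those shares. The median in the latter comparison was 0.09, against 0.006 over all genes, with 26 positive and 13 negative.

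**Figure D4:**
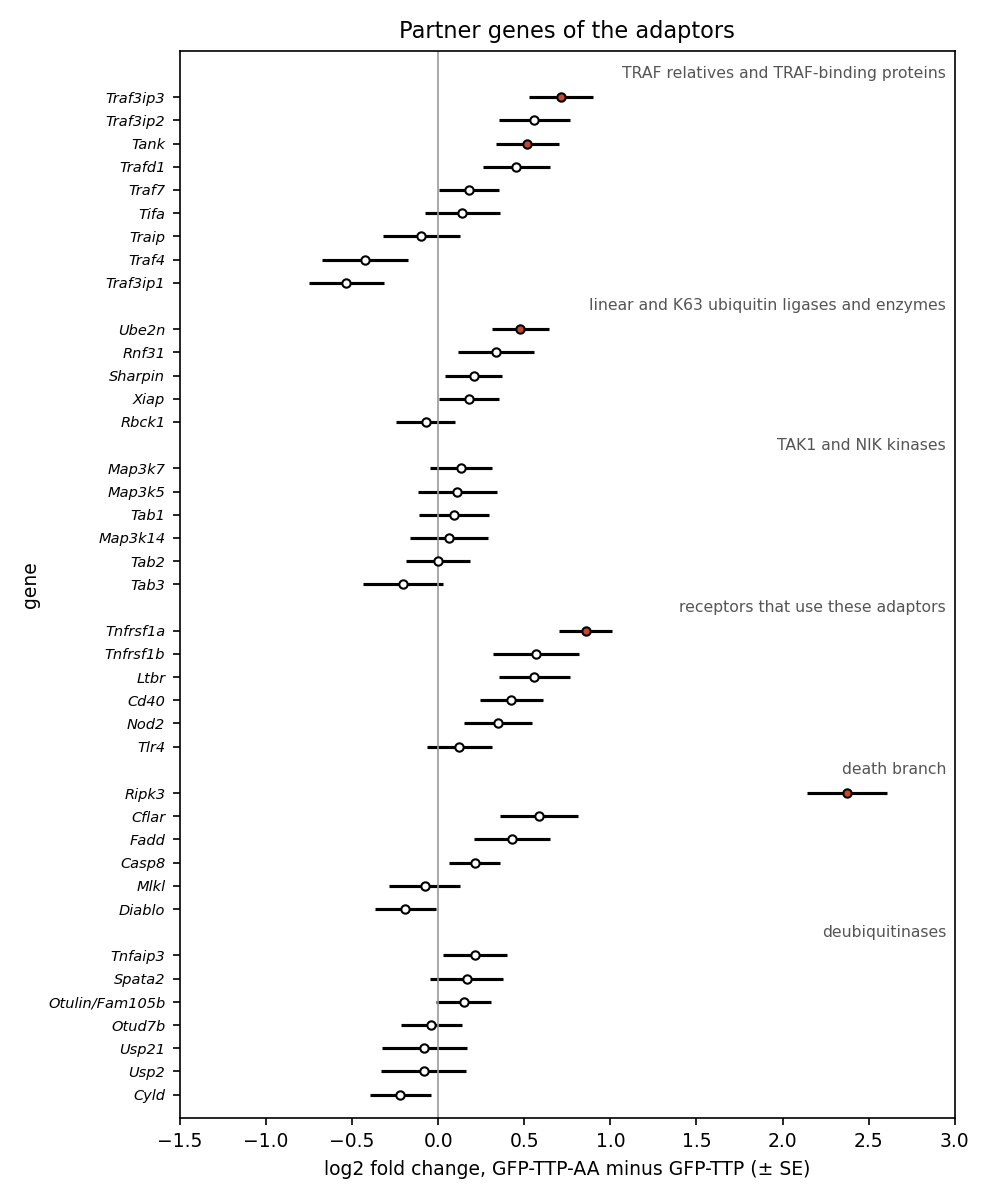
Log2 fold change ± SE (x axis) between GFP-TTP-AA and GFP-TTP of the 39 tested partner genes, in 6 groups. Filled points have an adjusted p under 0.05: Ripk3 at 2.37 stands apart, and Tnfrsf1a, Traf3ip3, Tank and Ube2n lie between 0.48 and 0.86.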

How the data were processed

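Ribosome footprints of 9 libraries (3 conditions, 3 replicates each) were analysed, with groups from the sample labels. The authors mapped reads with TopHat (TopHat2 2.0.12 in the submitters' processing notes, which also name HTSeq and Trim Galore) to mm10, with more than 1 alignment per read allowed, and fitted DESeq2 (1.6.3) with library date and condition. The deposited table named as normalised counts holds a signal, the size factor times the fitted mean, with a largest residual of 6.13e-15 (log2) after condition and replicate number. The deposited comparison tables hold a mean signal and standard errors in log2, which were used, and the authors' fold changes, statistics and p-values, which were not.

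Size factors were recovered from 1643 genes in 9 classes of identical fitted pattern, as genes with reads in a single library have. A log2 fold change is the difference of log2 levels. It was divided by the deposited standard error (Wald, two-sided, normal), and p-values were adjusted by the Benjamini-Hochberg method over all genes whose mean fitted value reached 10, threshold 0.05. The fold changes are shrunken by the authors' model, so low or variable genes are understated. The exact depth in reads is unknown and acts through the standard errors. The fitted sums are an approximate guide to it. Within GFP-TTP-AA alone they ran from 2570292 (replicate 2) to 12804501 (replicate 1). The plan named this Wald test for the case that the values were fitted. A test on replicate spread was planned only if the values held such spread, which they did not. The steps for size factors and calls were run on simulated data. Their noise was drawn at the deposited standard errors, and the simulated fold changes were not shrunken. That run checks the calculation only and cannot test those errors or the effect of shrinkage. Alternatives were a filter of none or of 50, centring on medians overall or per chromosome, a pseudocount of 10, joint adjustment and another transcript for 3′ UTRs. Python 3.11.15, NumPy 2.4.6, pandas 2.3.3, SciPy 1.17.1 and matplotlib 3.10.9 were used. Of 16932 lines, 11 repeats were dropped. Annotation was GENCODE vM21; all 10 genes matched.

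The 10 genes and the lists were chosen with earlier results of these data known. Named were the 10 genes, every partner gene past the threshold, Zfp36 and the 3 genes nearest in pattern to the gene with the largest Wald statistic.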

Additional observations from a re-analysis of the deposited data

How the results depend on the processing

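No called value of the 10 genes or of the named partner genes changed sign under the alternatives run. In GFP-TTP-AA against GFP, adjusting over the 3 comparisons together raised the adaptors called higher from 1 to 2, as Birc3 passed (0.63, adjusted p = 0.0451), and partner genes called higher went from 0 to 2 (Ripk3 and Tnfrsf1a); they were 1 (Ripk3) with a fitted mean of at least 50 and 1 (Ripk3) with chromosome medians subtracted. In GFP-TTP-AA against GFP-TTP the joint adjustment left 3 of 5 partner genes called higher (Tank and Ube2n lost), subtracting the overall median left 4 (Tank lost) and chromosome medians left 4 (Ube2n lost), and Ripk2 was lost with the joint adjustment or chromosome medians, which left 3 of 4 adaptors called. Of 49 values tested again in each comparison for the 10 genes, 49, 48 and 47 kept their side of the threshold in GFP-TTP against GFP, GFP-TTP-AA against GFP and GFP-TTP-AA against GFP-TTP. The pseudocount of 10, which has no test, moved each value by less than its standard error. For the 3′ UTR counts, the transcript with the longest coding sequence gave no ATTTA or TATTTAT in Traf5, in place of 1 each, beside the changes in Birc3 and Traf2 given above. No paired analysis was possible because the values are fitted, with a condition step that is the same in every replicate number. The tests given still take the replicate number into account, since they rest on standard errors of the authors' model, which already holds a term for library date, taken here as that number. Fits without the replicate block and without each replicate in turn were not run, as fitted values hold no spread. How far the calls rest on 1 library was therefore not tested. The standard errors set what could be seen: they lay between 0.14 and 0.25 for the 10 genes.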
